A study of Homo sapiens with 4 samples.

Results

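The 10 genes described here code for chaperones and proteases that keep mitochondrial proteins folded and remove those that fail to fold. They were found by gene name, or by current symbol through the transcript accession, among the 14297 gene probes of each array. All 10 were found, each with 1 probe, and all 10 were among the 8852 probes tested. RNA was taken after 4 h from K562 cells, a human erythroleukemia cell line, and each of 4 two-colour Agilent arrays compared AC-1041-treated with control cells. AC-1041 is a thalidomide analog. The labels call the control cells untreated and give no dose, while the methods name a DMSO vehicle and list AC-1041 at 10 μM. Arrays 1 and 2 had the treated RNA in Cy5, and on arrays 3 and 4 the dyes were swapped. The methods describe replicate samples of each condition without tying them to arrays, so the p-values cannot be read as the spread between cultures. In the main fit they rest on the spread between arrays of the same dye orientation, and in part on that of all tested probes.

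Most mitochondrial proteins are made in the cytosol, imported unfolded and folded in the matrix by HSP60 (HSPD1) with its lid HSP10 (HSPE1), and TRAP1 is the mitochondrial member of the HSP90 family. Damaged matrix proteins are degraded by LONP1 and by the CLPX and CLPP complex. Inner membrane proteins are degraded by the i-AAA protease YME1L1 and by the m-AAA protease made of AFG3L2 and SPG7, while HTRA2 works in the intermembrane space. When unfolded protein builds up in mitochondria, cells are known to induce several of these genes, a program called the mitochondrial unfolded protein response, in which the transcription factors CHOP (DDIT3), ATF4 and ATF5 take part. HSPD1 and HSPE1 are also known targets of the heat shock factor HSF1.

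HSPD1 and HSPE1 lie head to head on chromosome 2. Sequence around their starts is shown because they are the folding pair of this group and HSPD1 was its most changed gene. RefSeq (GRCh38.p14) places a start of HSPD1 at 197500274 on the minus strand and the start of HSPE1 at 197500379 on the plus strand. The 104 bases between these starts, chr2:197500275-197500378, are given on the plus strand. A short stretch before the other listed start of HSPD1 (197499840) is given on the minus strand, chr2:197500061-197500090, with overlapping heat shock motifs in capitals. This stretch lies outside the gap and downstream of the HSPD1 start at 197500274.
HSPD1 to HSPE1 gap: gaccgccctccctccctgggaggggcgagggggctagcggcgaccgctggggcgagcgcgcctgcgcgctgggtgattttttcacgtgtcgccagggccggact
HSPD1 heat shock motifs: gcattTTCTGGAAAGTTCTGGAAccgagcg
Promoter windows of 300 bases were at hand for 8 of the 10 genes, 12 windows in all, and not for CLPP and YME1L1. The heat shock motif of 3 units (GAA, TTC and GAA in turn, with NN between units, or its reverse complement) was found in this HSPD1 window alone of the 12, and in 0.49% of the 35116 windows of all genes. The pairs TTCNNGAA and GAANNTTC, which overlap the longer motif, were also found in that window alone of the 12, and in 7.74% and 6.77% of all windows. The HSPE1 window begins at 197500129, so it leaves out these motifs, at 197500068 to 197500085, although they lie upstream of the HSPE1 start. The ATF4-type motif TGATGCAA was found in none of the 12 windows, against 0.866% of all. A match of letters is a description and not a binding site.

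The probes of the chaperonin pair and of LONP1 are identified by their first 30 bases, since the direction of these genes on the arrays rests on 1 probe each.
HSPD1 probe: attttagtgcttgccaccaccagatgagaa
HSPE1 probe: aagttcttctcccagaatatggaggcacca
LONP1 probe: cctggaggtgcacttcgtggaacactaccg
On hg18, the build of the files, the HSPD1 probe lies at chr2:198059626-198059685, the HSPE1 probe at chr2:198076048-198076187 and the LONP1 probe at chr19:5643074-5643133. The HSPE1 probe has 60 bases but spans 140 on the genome, so it crosses a splice junction, as do the probes of TRAP1 and HTRA2. No hg18 annotation of exons was used. RefSeq lists 22 pseudogenes of HSPD1 and 28 of HSPE1, 1 each of YME1L1 and AFG3L2 and none named after the others, and signal from such copies on these probes was not tested.

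Across the arrays, 5941 to 9515 probes were well above background in a channel, with fewer on arrays 1 and 2 than on arrays 3 and 4, and no spot was saturated. The log2 ratios of the tested probes had a Pearson correlation of 0.81 between arrays 1 and 2 and 0.94 between arrays 3 and 4, but of -0.29 to -0.12 between arrays of opposite dye. Dye, array quality and the 2 pairs of arrays therefore cannot be told apart, and the 10 genes, along with the called genes named further on whose sign turned with the dye, are given by orientation. All 10 of the K562 markers looked at (GATA1, KLF1 and embryonic and fetal globins among them) passed the background call in control RNA on at least 2 arrays, as did 2 of 4 T cell, 2 of 3 B cell, 1 of 3 fibroblast and 1 of 3 epithelial markers.

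In treated cells HSPD1 and LONP1 rose modestly, by 1.36-fold and 1.27-fold, and no other gene of the group changed past the test. Both genes were higher on all 4 arrays. HSPE1, the partner of HSPD1, was higher with one dye orientation and lower with the other. The median log2 ratio of treated to control cells over the 10 genes was -0.0050, against 0.017 over the 8836 genes tested. At an adjusted p under 0.05 in limma with a treatment and a dye term (Benjamini-Hochberg), 2 of the 10 genes were higher, 20% of them, against 24.3% of all tested probes, a share near the background. None was lower at that threshold, against 13.0% of all probes (37.4% in either direction). At an unadjusted p under 0.05 in limma 1 gene (CLPX) was lower, and the share of all probes there was not counted. Without the dye term limma called none of the 10, against 0.582% of probes called higher and 0.0448% called lower, and 1 gene (LONP1) passed an unadjusted p of 0.05. RNA came from whole cultures, so a change in fewer cells and a change of RNA per cell cannot be told apart.

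**Figure D1:**
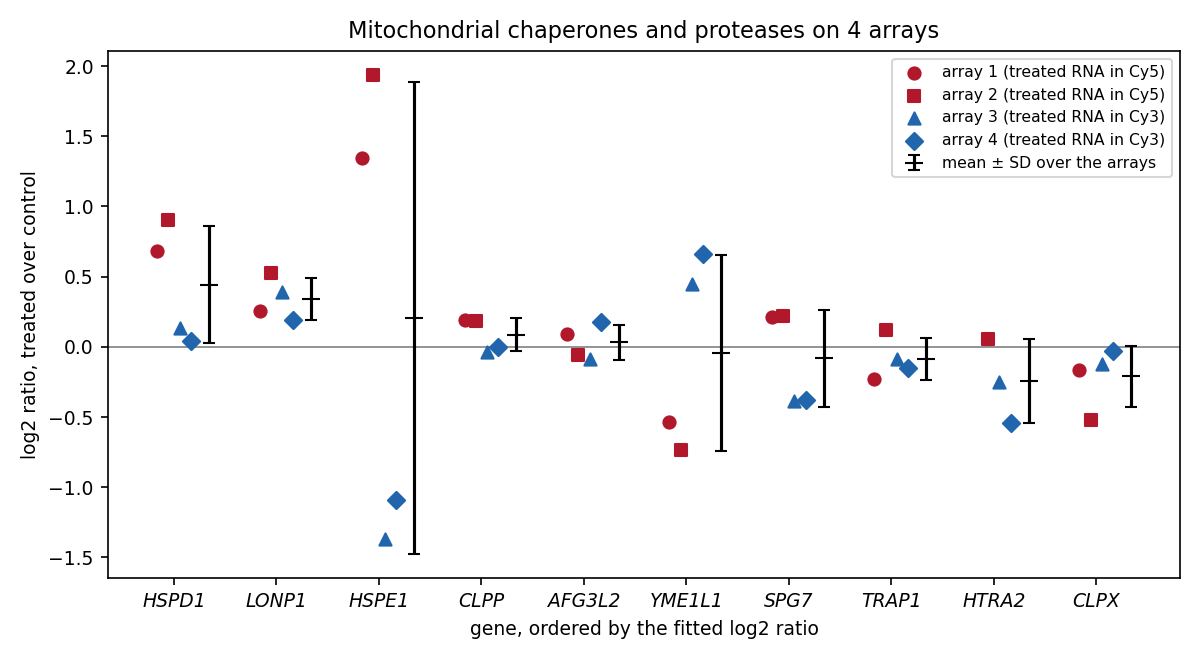
Log2 ratio of treated to control cells (vertical axis) of the 10 genes (horizontal axis, ordered by the fitted ratio) on each of 4 arrays, red with the treated RNA in Cy5 and blue with it in Cy3, with the mean and SD over the arrays in black. HSPD1 and LONP1 lie above 0 on all 4 arrays and CLPX below 0 on all 4, while HSPE1, YME1L1 and SPG7 change sign with the dye.

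The chaperones are taken first. HSPD1 codes for the HSP60 subunit that encloses unfolded proteins. Its log2 ratio was 0.68 and 0.90 on arrays 1 and 2, and 0.14 and 0.044 on arrays 3 and 4. All 4 values were above 0, but those with the treated RNA in Cy3 were small, with a mean of 0.090 against 0.79 in Cy5. The fitted log2 ratio was 0.44 ± 0.42 (SD, n = 4 arrays), with a 95% interval of 0.28 to 0.60 and a limma adjusted p of 0.0017. Its standard error of 0.070 is moderated by limma, from the spread within orientations drawn toward a value shared by all tested probes. The dye term of HSPD1 was itself past the threshold (0.35, adjusted p = 0.0030), as it was for 58.2% of all probes. As normalised log2 intensity, HSPD1 lay between 16.35 and 17.15 in treated and between 15.67 and 16.76 in control cells, so the levels overlapped across arrays although the treated channel was the brighter on each. The limma adjusted p was 0.37 without the dye term, and the exact two-sided sign-flip permutation test gave 0.125, the smallest p that 4 arrays allow.

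HSPE1 codes for the HSP10 lid that closes the HSP60 chamber. Its log2 ratio was 1.35 and 1.94 on arrays 1 and 2 but -1.37 and -1.09 on arrays 3 and 4. The Cy5 channel was thus the brighter on every array, whichever RNA it held. The dye term, a log2 ratio of Cy5 to Cy3 of 1.44, was larger than that of 99.9% of the tested probes. The fitted log2 ratio was 0.21 ± 1.68 (SD, n = 4), with a 95% interval of -0.027 to 0.44 (limma adjusted p = 0.15), and its sign turned under median centring (-0.027). Without array 1 it was 0.35 with an adjusted p of 0.0010, so 1 array decides whether HSPE1 is called. On these arrays no direction is given for HSPE1, and whether it moved with HSPD1 cannot be read from them.

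**Figure D2:**
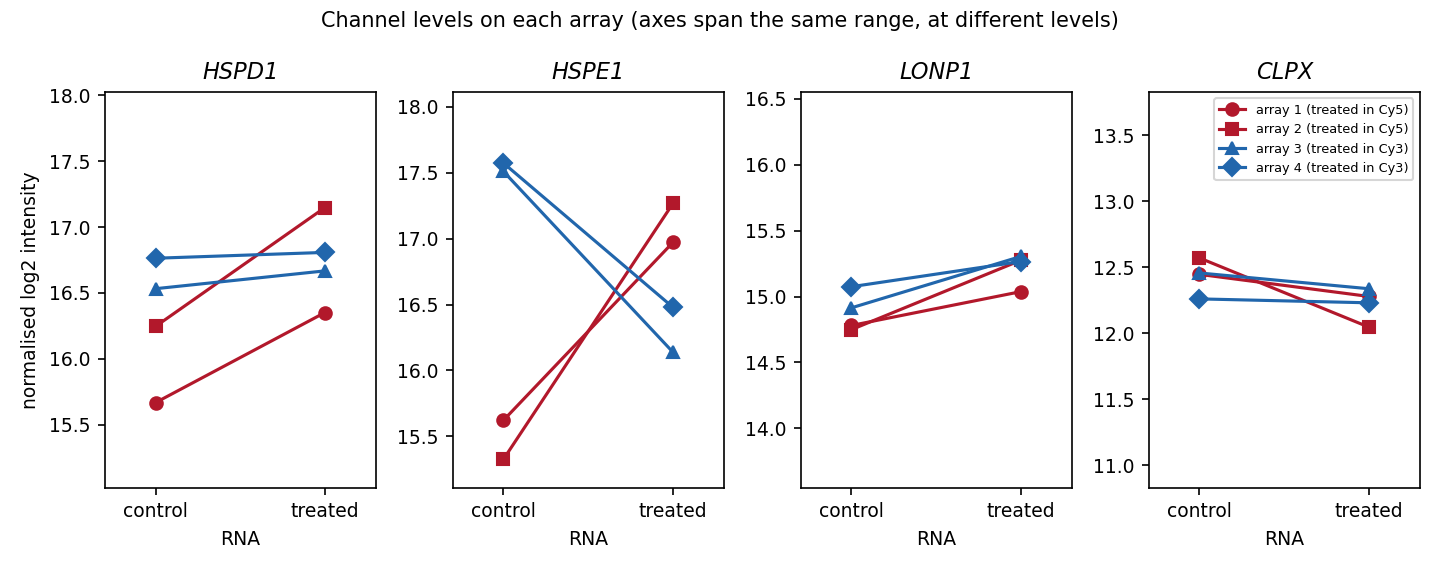
Normalised log2 intensity (vertical axes, each spanning 3 log2 units around its own gene) of HSPD1, HSPE1, LONP1 and CLPX in control and treated RNA, with a line for each of the 4 arrays, red with the treated RNA in Cy5 and blue with it in Cy3. The lines of HSPD1 and LONP1 rise on every array, those of CLPX fall on every array, and those of HSPE1 cross.

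TRAP1, the mitochondrial HSP90, had log2 ratios of -0.23, 0.12, -0.086 and -0.15 on arrays 1 to 4. These lay on both sides of 0, with no split by dye. The fitted value was -0.087 ± 0.15 (SD, n = 4). Its 95% interval was -0.26 to 0.088 (limma adjusted p = 0.41).

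Of the matrix proteases, LONP1, an AAA+ serine protease that degrades oxidised and misfolded matrix proteins, was the only one that passed the test. Its log2 ratio was 0.26, 0.53, 0.39 and 0.19 on arrays 1 to 4. Unlike HSPD1 and HSPE1, it had like values in both orientations, 0.39 with the treated RNA in Cy5 and 0.29 in Cy3, and a dye term of 0.050 (limma adjusted p = 0.59). The fitted log2 ratio was 0.34 ± 0.15 (SD, n = 4), with a moderated standard error of 0.075. Its 95% interval was 0.17 to 0.51 and its limma adjusted p 0.0089, both resting in part on the spread shared by all tested probes. The treated level was 15.04 to 15.30 and the control level 14.75 to 15.07 in normalised log2 intensity, which overlapped only between 15.04 and 15.07. The call was lost without array 3 (0.29, limma adjusted p = 0.095) and without the dye term (adjusted p = 0.27), and its exact sign-flip permutation p was 0.125.

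CLPX, the unfoldase that feeds proteins into the CLPP chamber, had log2 ratios of -0.17, -0.52, -0.12 and -0.030 on arrays 1 to 4. All 4 values were below 0, the lowest on array 2. The fitted value was -0.21 ± 0.22 (SD, n = 4), and the limma adjusted p of 0.064 missed the threshold. It was past it with an intensity-dependent prior (adjusted p = 0.044), with the filter set to demand that Cy5 and Cy3 both pass the background call on every array (0.036) and without array 1 (-0.30, adjusted p = 0.0030).
CLPP, the peptidase of the same complex, had log2 ratios of 0.19, 0.18, -0.034 and 0.0011. The fitted value was 0.085 ± 0.12 (SD, n = 4), with a 95% interval of -0.060 to 0.23 (limma adjusted p = 0.33). Of the 9 genes measured on all 4 arrays, 2 were above 0 on every array, against 16.7% of such probes, and 1 (CLPX) was below 0 on every array, against 9.19%.

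The inner membrane proteases gave no call. YME1L1, the i-AAA protease, had log2 ratios of -0.54 and -0.74 with the treated RNA in Cy5 but 0.45 and 0.66 with it in Cy3. This is the opposite split to that of HSPE1, with a dye term of -0.60 (limma adjusted p = 0.00026) and a fitted treatment value of -0.041 ± 0.70 (SD, n = 4). Its sign turned in 3 of 14 alternatives. SPG7, a subunit of the m-AAA protease, had log2 ratios of 0.21 and 0.22 in Cy5 and of -0.38 and -0.38 in Cy3. Its fitted value was -0.083 ± 0.35 (SD, n = 4), with a 95% interval of -0.23 to 0.062. AFG3L2, the other subunit, did not split by dye, with log2 ratios of 0.094, -0.057, -0.088 and 0.17. The fitted value was 0.031 ± 0.12 (SD, n = 4), with a 95% interval of -0.14 to 0.20 (limma adjusted p = 0.77), and its sign turned in 4 of 14 alternatives.

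HTRA2, a serine protease of the intermembrane space that promotes apoptosis once it is released, was measured on 3 arrays, because its Cy5 spot on array 1 was marked as non-uniform. Its log2 ratios were 0.058, -0.25 and -0.54 on arrays 2, 3 and 4. The value in Cy5 rests on array 2 alone, and the fitted value was -0.17 with a limma adjusted p of 0.20 and a 95% interval of -0.39 to 0.053.

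In the order of the fitted ratios (HSPD1, LONP1, HSPE1, CLPP, AFG3L2, YME1L1, SPG7, TRAP1, HTRA2, CLPX), each gene from HSPD1 to SPG7 differed from the next by less than the SD of that difference over the arrays. HTRA2 was lower than TRAP1 by 0.20 ± 0.17 (SD) over the 3 arrays that measured it, but 1 of these had the treated RNA in Cy5 and the others had it in Cy3, so this difference takes in the dye and sets no order. HSPD1 exceeded LONP1 by 0.10 ± 0.35 (SD, n = 4), and LONP1 exceeded CLPX by 0.55 ± 0.35 and on each array. Of the 10 genes, 4 (HSPD1, HSPE1, YME1L1 and SPG7) had a dye term past the threshold, against 58.2% of all probes, and these 4 split in both directions.

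**Figure D3:**
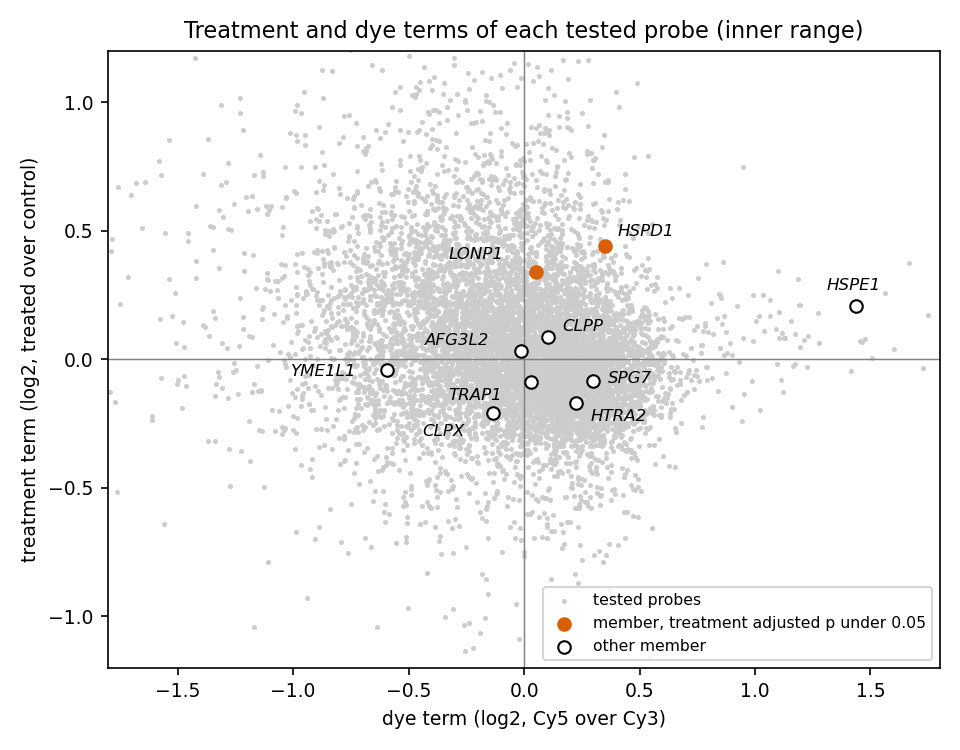
Fitted treatment term (vertical axis, log2 ratio of treated to control) against the dye term (horizontal axis, log2 ratio of Cy5 to Cy3) for the tested probes in grey, of which 90 lie outside the plotted range, and for the 10 genes. The filled points, HSPD1 and LONP1, have treatment terms past an adjusted p of 0.05, and HSPE1 lies far to the right with a dye term of 1.44.

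The genes whose 4 ratios lay closest to those of HSPD1, by Euclidean distance over the 4 arrays among 6841 genes, were CTNS (0.16), IL17RA (0.21), TFE3 (0.22), XKR8 (0.23) and STX11 (0.24). No gene of the group is among them. Each had high values on arrays 1 and 2 and values near 0 on arrays 3 and 4, so this likeness takes in the dye as well as the treatment.

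Other genes of mitochondrial protein import and quality control moved in both directions. Of 40 tested genes in 4 related lists, 8 were higher and 10 lower at a limma adjusted p under 0.05, which is 20% and 25% against the 24.3% and 13.0% of all probes. Without the dye term none of the 40 was called by limma, against 0.582% of all probes called higher and 0.0448% called lower. Of the 40, 1 passed an unadjusted p of 0.05 in limma. Of the 18 calls, 15 were also lost in at least 1 other setting, 14 of them without array 3 and 15 without array 4. GRPEL2, TIMM8A and TIMM10 lost theirs only without the dye term, although TIMM10 could be fitted in just 11 of the 14 alternatives.

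In the matrix HSP70 and import motor list 2 of 8 genes were higher and 3 lower, against 24.3% and 13.0% of all probes. The median log2 ratio of the list was -0.082. GRPEL2, a nucleotide exchange factor of mitochondrial HSP70, had the largest change, with log2 ratios of 0.70, 0.76, 0.90 and 1.16 on arrays 1 to 4 and a fitted value of 0.88 ± 0.20 (SD, n = 4, limma adjusted p = 6.8e-05). Its paralog GRPEL1 fell, with log2 ratios of -0.56, -0.63, -0.068 and -0.17 and a fitted value of -0.36 ± 0.28 (SD, n = 4, limma adjusted p = 0.0035), a call lost without array 4. The 2 exchange factors thus moved in opposite directions, and each did so on every array. TIMM44 (-0.28) and DNAJC15 (-0.25), parts of the import motor, were the other lower genes, and PAM16 had the smallest value (-0.032). HSPA9, the mitochondrial HSP70 itself, named after its values were seen, was the other higher gene at 0.24 ± 0.91 (SD, n = 4), and it turned sign with the dye (-0.54 in Cy5 and 1.02 in Cy3).

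Of the 13 tested translocase subunits, 4 were lower and none higher in limma at an adjusted p under 0.05, against 13.0% and 24.3% of all probes. At an unadjusted p under 0.05 in limma 8 were lower and none higher, but the share of all probes there was not counted. The median log2 ratio was -0.19. TIMM8A, a small chaperone of the intermembrane space, had the largest change at -0.46 ± 0.51 (SD, n = 4), near 0 on arrays 1 and 2 and -0.81 and -0.97 on arrays 3 and 4. TIMM10, of the same family, was -0.35 ± 0.10 (SD, n = 3), with like values on the 3 arrays measured. TIMM17A, of the inner membrane channel, was -0.19 ± 0.085 (SD, n = 4). TOMM40, the import pore, completed the 4 at -0.22 ± 0.69 (SD, n = 4), but its sign turned with the dye (0.37 in Cy5 and -0.81 in Cy3). The same held for TOMM7 (0.89 and -0.80), which had the smallest fitted value (0.044).

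Among the other mitochondrial peptidases and unfoldases 4 of 11 genes were higher and 2 lower, against 24.3% and 13.0% of all probes. PMPCB, a subunit of the presequence peptidase, was 0.32 ± 0.62 (SD, n = 4), LACTB 0.28 ± 0.98, METAP1D 0.22 ± 0.28 and OMA1, the stress-activated inner membrane protease, 0.22 ± 0.17. Of these OMA1 alone was above 0 on all 4 arrays. The sign turned with the dye for PMPCB (-0.21 in Cy5 and 0.86 in Cy3), LACTB (-0.56 and 1.12) and METAP1D (-0.013 and 0.46), and for IMMP2L (-0.41 and 0.41), which had the smallest fitted value (0.0011). Of 8 prohibitins and protease partners, XIAP (0.26 ± 0.33), an inhibitor of caspases that HTRA2 binds, and DIABLO (0.22 ± 0.12) were higher. OPA1 (-0.24 ± 0.31), a substrate of OMA1 and YME1L1, was lower. That made 2 of the 8 higher and 1 lower, against the same shares of all probes. XIAP was -0.029 in Cy5 and 0.54 in Cy3, OPA1 was -0.49 and 0.0046, and PHB2 had the smallest value (-0.018).

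The regulators and the stress genes outside mitochondria give the setting of these values. Of 6 tested regulators, DDIT3 (1.64 ± 0.31, SD, n = 4) and ATF4 (0.72 ± 0.38) rose and none fell at an adjusted p under 0.05 in limma. Of all probes, 24.3% were higher and 13.0% lower at that threshold, the background for each list here. At an unadjusted p under 0.05 in limma 4 of the 6 were higher and none lower. The share of all probes at an unadjusted p was not counted, for the regulators or for the lists that follow. ATF5, named after its values were seen, was 0.045 ± 0.85 (SD, n = 4, limma adjusted p = 0.70), with 0.77 in Cy5 and -0.68 in Cy3. UBL5 had the smallest fitted value (0.044), with 0.50 in Cy5 and -0.41 in Cy3. Of 12 chaperones outside mitochondria that are known HSF1 targets, 9 were higher and none lower at an adjusted p under 0.05 in limma, with 11 higher and none lower at an unadjusted p under 0.05. Their median log2 ratio was 0.49, and the largest values were 1.85 for HSPH1, 1.84 for HSPA4L, 1.75 for BAG3 and 0.90 for HSP90AA1, with the smallest at 0.19 for STIP1. Called genes of this list also turned sign with the dye. These were DNAJA1 (-0.16 in Cy5 and 0.85 in Cy3) and HSPA8 (1.08 and -0.028), both named after their values were seen. Of 11 ATF4-type metabolic genes 9 were higher and none lower, with 1 lower at an unadjusted p under 0.05 in limma and a median of 0.70. The largest were GDF15 (1.74), TRIB3 (1.43), SESN2 (1.16) and MTHFD2 (0.96), a mitochondrial folate enzyme, and ALDH18A1 had the smallest (-0.16). Without the dye term limma called 1 of the 6 regulators (DDIT3) and 2 of the 12 HSF1 targets (HSPH1 and BAG3). It also called 2 of the 11 metabolic genes (GDF15 and TRIB3). In that fit 0.582% of all probes were called higher and 0.0448% lower. ATF4, HSPA4L, HSP90AA1, SESN2 and MTHFD2 thus lost their calls. These lists were drawn up with earlier results of these arrays known.

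**Figure D4:**
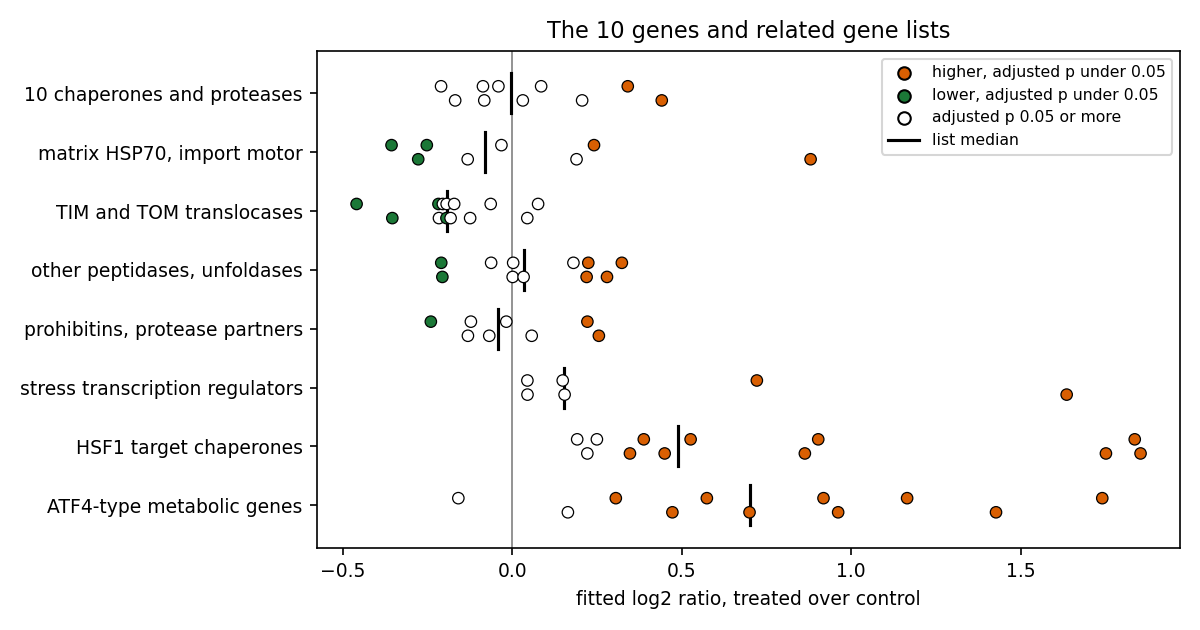
Fitted log2 ratio of treated to control cells (horizontal axis) of each tested gene in the group of 10 and in 7 related lists (vertical axis), orange where higher and green where lower at a limma adjusted p under 0.05, with the median of each list as a line. The medians of the 10 genes and of the mitochondrial lists lie between -0.19 and 0.033, while those of HSF1 target chaperones and ATF4-type metabolic genes are 0.49 and 0.70.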

How the data were processed

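The authors scanned the arrays and quantified them with Agilent Feature Extraction (9.5.1.1 per the file headers). The deposited files hold raw intensity per spot and local background in both channels, processed intensity values and, per spot, their log10 ratio (red over green). The deposited series table holds log10 ratios, of which 99.89% to 100% per array matched these to within 0.001 once the swapped arrays were turned, which makes its direction treated over control.

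From the raw signals, background was corrected with normexp (offset 50), control spots and spots marked as outliers were left out, and arrays were normalised by loess (span 0.3). Probes well above background in 1 channel on at least 2 arrays were fitted by limma 3.58.1 (R 4.3.3) for treatment plus dye, and p-values were adjusted after Benjamini and Hochberg over all 8852. The standard error, interval and p therefore rest on the spread between arrays of the same orientation. The eBayes step of limma draws that spread toward a value shared by all tested probes. Levels were scaled between arrays by Aquantile and are compared within a probe only. Accessions gave current symbols for 12002 of 14297 probes (RefSeq, GRCh38.p14, for names and promoters only). CLPX is named as in the files. For a gene with several probes the brightest was used. The fit was tested on simulated data.

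Named are the 10 genes, up to 4 called genes with the largest change and the smallest value in each related list, and the 5 genes closest to HSPD1. Members and lists were chosen with earlier results of these data known. All 4 arrays share 1 slide and 1 scan date, so neither could be a block. The number of arrays limits the precision. 1 listed marker gene is not reported here.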

Additional observations from a re-analysis of the deposited data

How the results depend on the processing

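The dye term mattered most. Without it 0 of the 10 genes were higher, 52 probes were higher and 4 lower, and 0 genes of the related mitochondrial lists were higher and 0 lower, because that fit counts the difference between orientations as error. CLPX made 1 of the 10 genes lower when Cy5 and Cy3 both had to pass the background call on every array, and 1 with an intensity-dependent prior. The first of these left 1342 probes higher and 1073 lower, as fewer were tested (5587). The second gave 2173 probes higher and 1213 lower of 8852. Median centring gave 596 of 8852 probes lower, so that 79.9% of calls were higher against 65.2%, and 5 of the 40 related genes lower. Feature Extraction's processed signals gave 2 higher and 6 lower of the 40 related genes, against 1577 and 1148 of the 8852 probes. The deposited series values gave 2 of the 40 higher, against 1581 of the 8852 probes. Leaving out each array in turn gave 1 to 3 of the 10 genes higher (1 without array 3, when LONP1 was lost, and 3 without array 1, when HSPE1 was added), 0 to 1 lower, 1008 to 2590 probes higher and 283 to 1469 lower, and 1 to 9 related genes higher and 1 to 11 lower. The fits without 1 array leave 1 orientation with a lone array, assumed to vary like the others. Without array 1 all 10 genes, 40 related genes and 8812 probes were tested. Without array 2, 3 or 4 only 9 of the 10 genes (not HTRA2), 32 related genes and 7997 to 8011 probes were tested.

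Signs turned for AFG3L2 with processed signals (-0.017) and the series table (-0.017), for HSPE1 (-0.027), YME1L1 (0.0088) and SPG7 (0.034) under median centring, and within the leave-one-out ranges of AFG3L2 (-0.035 to 0.097) and YME1L1 (-0.095 to 0.013). None was past the threshold. HSPD1 stayed above 0 in all 14 alternatives (0.26 to 0.50) and was called in 13, and LONP1 stayed above 0 in 14 (0.27 to 0.41) and was called in 12. HTRA2 could be fitted in 11. Apart from the 2 constructions named, the cause was not tested. Each array is already a ratio of treated to control RNA, so the fit and the sign-flip test compare them within arrays. The replicate numbers occur once each, so no further pairing of arrays could be used. No gene of the 9 measured on all arrays had an array apart from the others by Dixon's test (largest ratio 0.72, CLPX). That test looks for 1 array apart and not for a split between the dye orientations, such as that of HSPE1.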
